A study of Mus musculus with 8 samples.

Results

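The genes described here are 10 members of the myostatin and activin pathway, taken by symbol from the 55487 gene IDs of the deposited expression table. They are the ligands Mstn, Gdf11 and Inhba, the extracellular proteins Fst, Fstl1 and Fstl3, the receptors Acvr2a, Acvr2b and Acvr1b, and the signal carrier Smad3. All 10 were present once each. The samples were hindlimb muscle from 8 male C57BL/6J mice aged 10 weeks, the only group analysed (n = 8). Both hindlimbs were cast for 8 days, which causes disuse atrophy, while K14Q MOTS-c was given intraperitoneally at 15 mg/kg per day, in 2 injections a day. MOTS-c is a peptide encoded in mitochondrial DNA, and K14Q is a form with a single residue changed, lysine to glutamine. The sample labels name vastus lateralis, while the study's design text and its methods for mouse RNA name gastrocnemius. Its casting methods list gastrocnemius, plantaris and soleus as the muscles collected, without vastus lateralis. Because the labels differ from the methods, the muscle is called hindlimb muscle here. Untreated, uncast and wild-type MOTS-c muscles were not analysed here, so no value below measures an effect of casting or of the peptide. The question open to these data is how strongly each pathway gene was expressed in cast, peptide-treated muscle, how far the mice differed, and which genes differed together.

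Myostatin, encoded by Mstn, is a secreted growth factor of the TGF-beta superfamily made mainly by muscle fibres, and it restrains muscle size. Myostatin, GDF11 and the activins bind the type II receptors ACVR2A and ACVR2B, which recruit a type I receptor such as ACVR1B and lead to phosphorylation of SMAD2 and SMAD3. Follistatin and FSTL3 bind these ligands outside the cell and block them, and loss of myostatin gives greatly enlarged muscles in mice and cattle.

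Promoter sequences of Mstn and Gdf11 are shown because these closely related ligands had the most similar pattern across mice of any member with Mstn. The RefSeq promoter table of build GRCm38.p6 held 9 of the 10 genes, all but Fst. Each line gives the 250 bases before the annotated start, 5' to 3' on the gene's strand. Capitals mark the E-box CANNTG, the letters read by MYOD1 and its relatives, and the TATA box TATAAA.
Mstn, chr1:53061390-53061639 (+): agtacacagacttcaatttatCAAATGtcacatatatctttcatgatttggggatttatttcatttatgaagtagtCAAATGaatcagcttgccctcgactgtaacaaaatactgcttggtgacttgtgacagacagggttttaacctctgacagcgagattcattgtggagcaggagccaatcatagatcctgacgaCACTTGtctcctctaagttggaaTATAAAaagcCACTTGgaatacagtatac
Gdf11, chr10:128891719-128891968 (-): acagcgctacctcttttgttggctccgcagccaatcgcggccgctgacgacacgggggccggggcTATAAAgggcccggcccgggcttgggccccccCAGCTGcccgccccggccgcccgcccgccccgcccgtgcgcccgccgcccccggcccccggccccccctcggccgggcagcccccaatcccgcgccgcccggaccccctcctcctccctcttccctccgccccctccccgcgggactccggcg
The Mstn window held 4 E-box matches, at 229, 174, 52 and 19 bases before the start, and 1 TATA box 29 bases before it. The Gdf11 window held 1 E-box match and 1 TATA box, 153 and 185 bases before the start. Searched on both strands, the E-box letters occurred in 66.2% of 32536 promoter windows of the same length and the TATA box letters in 12.3%. CAGAC, the letters of a Smad-binding element, occurred at 2 places in Mstn, at none in Gdf11 and in 42.2% of all windows, and its matches did not overlap the capitals. GC content was 38.4% for Mstn and 81.2% for Gdf11, against a median of 52.4% for all windows. These matches describe letters and do not show that a factor was bound.

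Levels are normalized counts, which are read counts scaled for library size with the authors' size factors. Libraries held 23985356 to 33012497 counted reads. Muscle genes were abundant in every mouse: skeletal actin Acta1 was at 140600 to 227200 and muscle creatine kinase Ckm at 158500 to 292000 normalized counts. Nothing in the labels splits the 8 libraries into batches.

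Mstn (ENSMUSG00000026100, chr1:53061640-53068079) was at 2908, 2238, 991, 1185, 1441, 1685, 1779 and 1677 normalized counts in mice 1 to 8. Mouse 1 was highest and mouse 3 lowest, a 2.93-fold range, with a mean of 1738 ± 607 (SD, n = 8). The 3 mice 6, 7 and 8 lay close together near the median of 1681.

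Gdf11 (ENSMUSG00000025352, chr10:128882295-128891718), which encodes the ligand nearest to myostatin and is known for patterning the embryonic axis, was at 193, 204, 48.2, 70.4, 55.9, 115, 164 and 116 normalized counts in mice 1 to 8. Mice 1, 2 and 7 were highest and mice 3, 5 and 4 lowest. The range was 4.24-fold around a mean of 121 ± 61.2 (SD, n = 8), the widest relative spread of the 10 members. Its coefficient of variation, the SD as a percent of the mean, was 50.6%, above that of 98.8% of the 15135 genes that reached 10 counts in each of the 8 libraries.

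Inhba (ENSMUSG00000041324, chr13:16011851-16031621), the subunit of activin A, was scarce. It was at 43.5, 29.2, 29.1, 25.3, 41.3, 21.5, 39.7 and 20.8 normalized counts in mice 1 to 8. Mice 1, 5 and 7 stood above the other 5. Each value rested on 19 to 45 reads, so counting error made up part of its 28.9% coefficient of variation, and 22.5% was left once counting error was taken out.

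Fst (ENSMUSG00000021765, chr13:114452290-114458951), encoding follistatin, was among the steadier members. It was at 132, 134, 165, 187, 162, 165, 128 and 150 normalized counts in mice 1 to 8, with a mean of 153 ± 20.6 (SD, n = 8). The 3 mice with the lowest Fst, mice 7, 1 and 2, were the 3 with the highest Mstn and Gdf11.

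Fstl3 (ENSMUSG00000020325, chr10:79777272-79782630), encoding the second ligand-blocking protein, was at 36.1, 21.6, 25.8, 17.6, 17.4, 24.5, 36.4 and 13.1 normalized counts in mice 1 to 8. Mice 1 and 7 were highest and mouse 8 lowest, from 12 to 34 reads.

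Fstl1 (ENSMUSG00000022816, chr16:37776873-37836514) encodes a secreted glycoprotein with a follistatin-like domain, made largely by connective tissue cells. It was at 1401, 1316, 847, 1549, 1428, 1268, 998 and 647 normalized counts in mice 1 to 8, a 2.40-fold range. Mice 8, 3 and 7 were low and the other 5 lay between 1268 and 1549.

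Acvr2a (ENSMUSG00000052155, chr2:48814109-48903269) and Acvr2b (ENSMUSG00000061393, chr9:119402118-119434995) encode the type II receptors. Acvr2a was at 1928, 2236, 1701, 1816, 1442, 1647, 1830 and 1979 normalized counts in mice 1 to 8, a mean of 1822 ± 238 (SD, n = 8). Acvr2b was at 194, 148, 169, 162, 271, 171, 113 and 143, a mean of 171 ± 46.9 (SD, n = 8). Mouse 5 had the lowest Acvr2a and the highest Acvr2b of the 8 mice. Per kilobase of exon, Acvr2a exceeded Acvr2b in every mouse, by 3.67-fold in mouse 5 and by up to 11.2-fold in mouse 7. Acvr2a overlaps Orc4 on the opposite strand, which had a mean of 556 normalized counts, and whether the counting used strand is not given in the sources used here.

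Acvr1b (ENSMUSG00000000532, chr15:101174067-101213684), encoding the type I receptor ALK4, was at 2421, 1924, 1556, 1827, 2138, 1872, 2276 and 2309 normalized counts in mice 1 to 8. Mouse 3 was lowest, as it was for Mstn and Gdf11, and mouse 1 highest, and the mean was 2040 ± 294 (SD, n = 8).

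Smad3 (ENSMUSG00000032402, chr9:63646767-63757994), encoding the protein that carries the receptor signal to the nucleus, was at 1979, 2756, 1612, 1894, 982, 1823, 2026 and 2539 normalized counts in mice 1 to 8. Mouse 5 stood lowest and mice 2 and 8 highest, a 2.81-fold range around a mean of 1951 ± 544 (SD, n = 8).

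**Figure D1:**
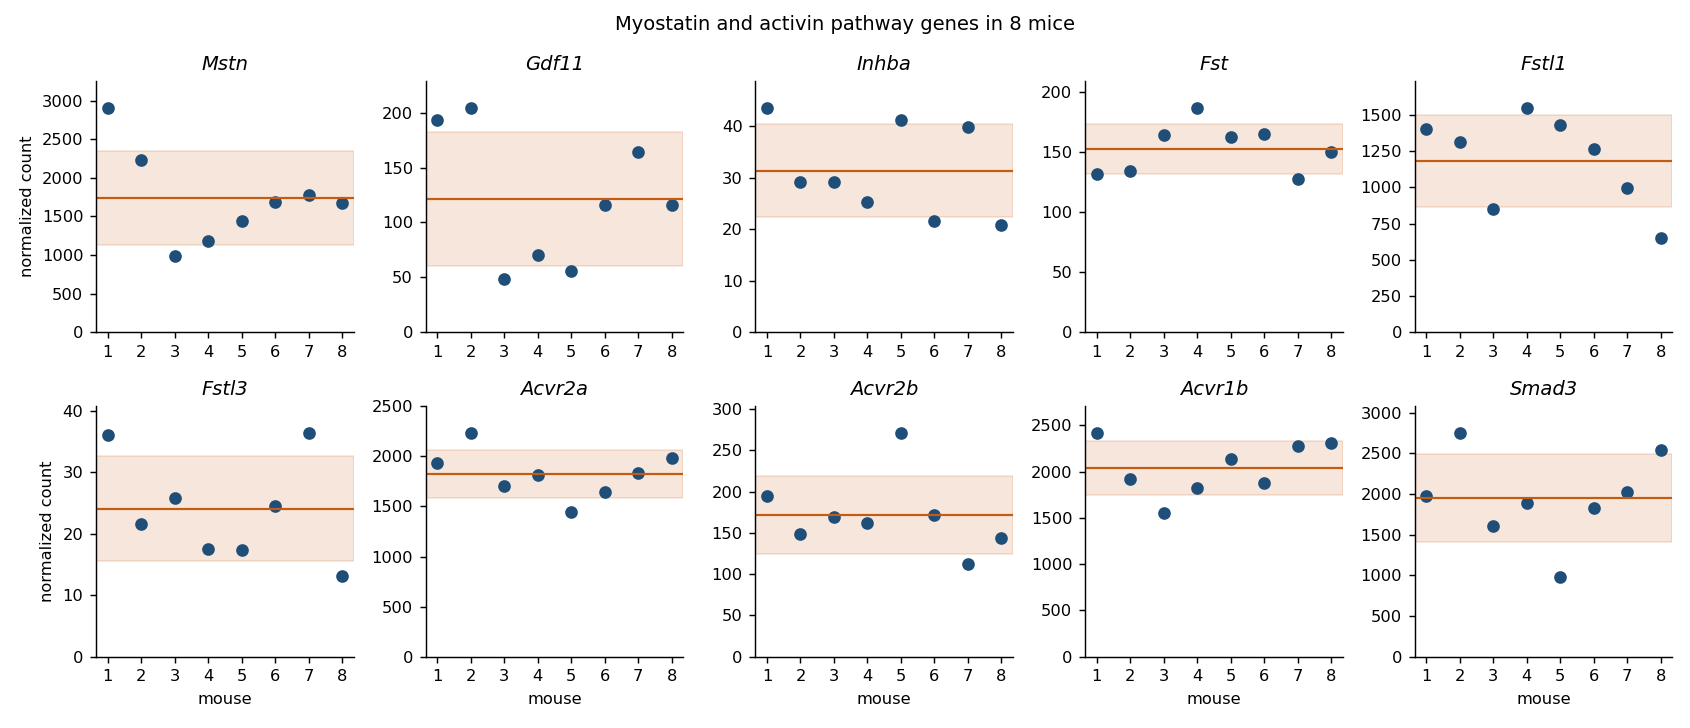
Normalized count (y axis, from 0, a scale of its own in each panel) of the 10 genes in mice 1 to 8 (x axis). Points are mice, the line is the mean and the band is 1 SD to each side. Gdf11 ran from 48.2 to 204 normalized counts and Acvr2a from 1442 to 2236.

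The mice differed in all 10 genes by more than counting error. A chi-square index of dispersion, which is 1 for counting error alone, ran from 2.53 for Inhba and 2.59 for Fst to 156 for Smad3 and 215 for Mstn, and every member passed an adjusted p of 0.05 (Benjamini-Hochberg over all 15135 genes). That count stands against a background in which 81.0% of all genes passed, so it does not single the pathway out. The median coefficient of variation was 27.6% over the 10 members and 15.6% over all genes tested. Mstn (34.9%), Fstl3 (35.5%) and Gdf11 (50.6%) were above 90% of genes. Fst (13.5%), Acvr2a (13.1%) and Acvr1b (14.4%) were below the median of all genes. Genes with few reads vary more by counting alone, which applies to Inhba and Fstl3.

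Compared per kilobase of exon, Mstn had the highest level of the 10, with a mean of 643 normalized counts per kilobase. Acvr1b followed at 462, Smad3 at 352, Acvr2a at 321 and Fstl1 at 241. After a step came Acvr2b at 43.6, Fst at 33.3 and Gdf11 at 29.8, and Fstl3 at 9.84 and Inhba at 4.90 were lowest. Neighbours in this order were compared within mice by an exact two-sided sign-flip test, for which 8 mice allow no p below 0.00781. Of 9 neighbouring comparisons, 7 passed an unadjusted 0.05. Mstn exceeded Acvr1b in 8 of 8 mice, by 1.33-fold on average (exact p = 0.00781). Smad3 and Acvr2a were not told apart (ratio 1.06, range 0.699 to 1.32, Smad3 higher in 6 of 8 mice, exact p = 0.383). Fst and Gdf11 were not told apart either (ratio 1.26, range 0.581 to 3.02, Fst higher in 5 of 8 mice, exact p = 0.352). The step between Fstl1 and Acvr2b was 5.47-fold, and it was the 1 neighbouring comparison in which the values of the 8 mice did not overlap. With the length of the longest transcript in place of all exons, the order was the same and 5 of 9 neighbours passed.

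**Figure D2:**
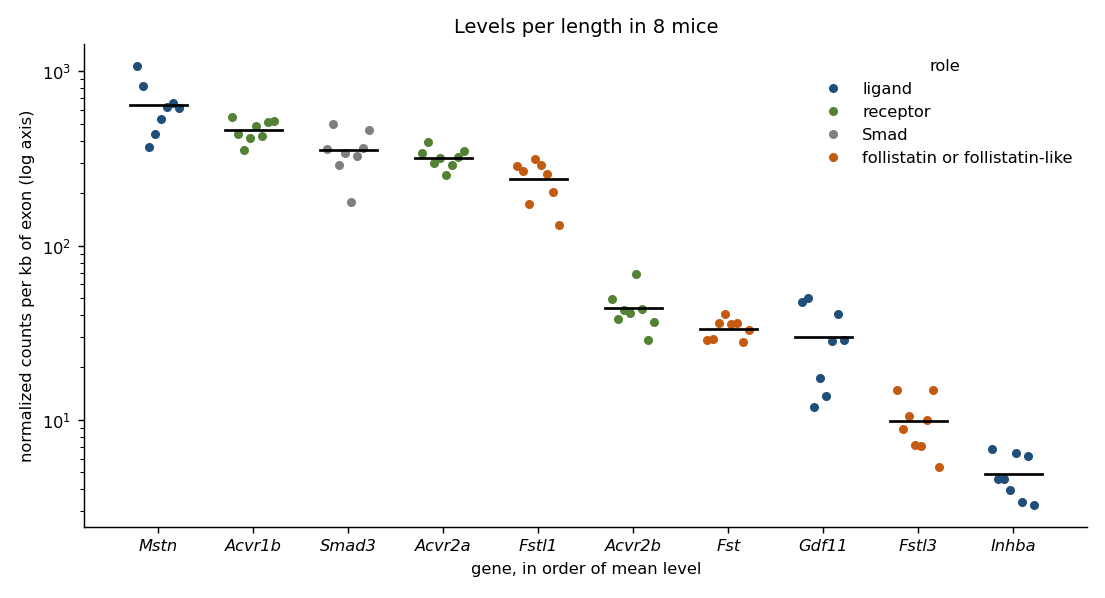
Normalized counts per kilobase of exon (y axis, log scale) of the 10 genes in order of their mean (x axis). Points are the 8 mice, bars are means, and colours give the role. The 5 leading genes have means from 241 to 643 and the other 5 from 4.90 to 43.6.

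The ratio of Mstn to Fst had a coefficient of variation of 45.9%, beside 34.9% for Mstn and 13.5% for Fst. Per kilobase, Mstn exceeded Fst by 37.5-fold in mouse 1 and 28.3-fold in mouse 2, but by 10.2-fold in mouse 3 and 10.8-fold in mouse 4, with a median of 18.1. Mstn exceeded Gdf11 by 16.2-fold to 38.7-fold and Inhba by 80.5-fold to 190-fold. Fst exceeded Fstl3 in every mouse, by 1.87-fold to 6.08-fold.

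Gdf11 was high and Fst was low in the mice where Mstn was high, in the unadjusted test, and neither relation passed after adjustment over all genes. Correlations are of log2(normalized count + 1) over the 8 mice, with an exact two-sided permutation p over every pairing of the 8 values. For Gdf11, r = 0.901 (exact p = 0.00136, adjusted p = 0.167 over 15134 genes) and rho = 0.929 (exact p = 0.00223). Without mice 1 and 3, the farthest from the median of Mstn, r was 0.881. For Fst, r = -0.778 (exact p = 0.0237, adjusted p = 0.300) and rho = -0.738 (exact p = 0.0458). Without mice 1 and 3 it was -0.845. For Acvr1b, r = 0.724 (exact p = 0.0432, adjusted p = 0.353) and rho = 0.690 (exact p = 0.0694), and without mice 1 and 3 r was 0.192, so this relation rests on those mice. The other 6 members, Inhba, Fstl1, Fstl3, Acvr2a, Acvr2b and Smad3, had r from -0.07 for Acvr2b to 0.517 for Acvr2a, and none passed the unadjusted test. Among all genes, 5.78% had a positive and 7.76% a negative relation to Mstn at an unadjusted exact p below 0.05, against 2 and 1 of the 9 members. By the adjusted exact p the call was made for 0 members and for 0.0% of genes, where 3 members passed unadjusted. With 8 mice the smallest p of this test is 2.48e-05, so none of the 15134 genes can pass the adjustment unless at least 8 do. An edgeR quasi-likelihood fit with Mstn as a covariate, chosen after seeing the data, called a positive slope for 0.0727% of genes and a negative slope for 0.192%. Gdf11 was the 1 member among them, changing by 1.48 on the log2 scale per log2 unit of Mstn (edgeR adjusted p = 0.0436), and Fst was not (adjusted p = 0.327).

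Among the members, Acvr2a and Smad3 had the closest relation, r = 0.939 (exact p = 0.000372) and rho = 0.952 (exact p = 0.00114). Without mice 5 and 2, the farthest for Acvr2a, r was 0.812. Of all genes, 2.82% had a positive relation to Acvr2a in the same unadjusted test. Gdf11 and Fst gave r = -0.811 (exact p = 0.0195) and rho = -0.714 (exact p = 0.0576), where 7.26% of all genes had a negative relation to Gdf11. Gdf11 also gave r = 0.726 with Acvr2a (exact p = 0.0383, rho = 0.810, exact p = 0.0218) and r = 0.708 with Smad3 (exact p = 0.0350, rho = 0.857, exact p = 0.0107), where 6.78% of all genes had a positive relation to Gdf11. Without mice 3 and 5, the farthest for Gdf11, these were 0.539 and 0.425. Acvr2b and Smad3 ran opposite, with r = -0.771 (exact p = 0.0407) and rho = -0.738 (exact p = 0.0458), where 4.1% of all genes had a negative relation to Smad3, and without mice 5 and 2 r was -0.379. With the 3 relations to Mstn above, these make 8 of 45 member pairs below an unadjusted 0.05, 5 positive and 3 negative. When adjusted over all genes 0 passed. Shares of all genes are given only for Mstn, Gdf11, Acvr2a and Smad3, for the last 2 in a single direction. The total of 8 therefore has no background beside it and is a description.

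**Figure D3:**
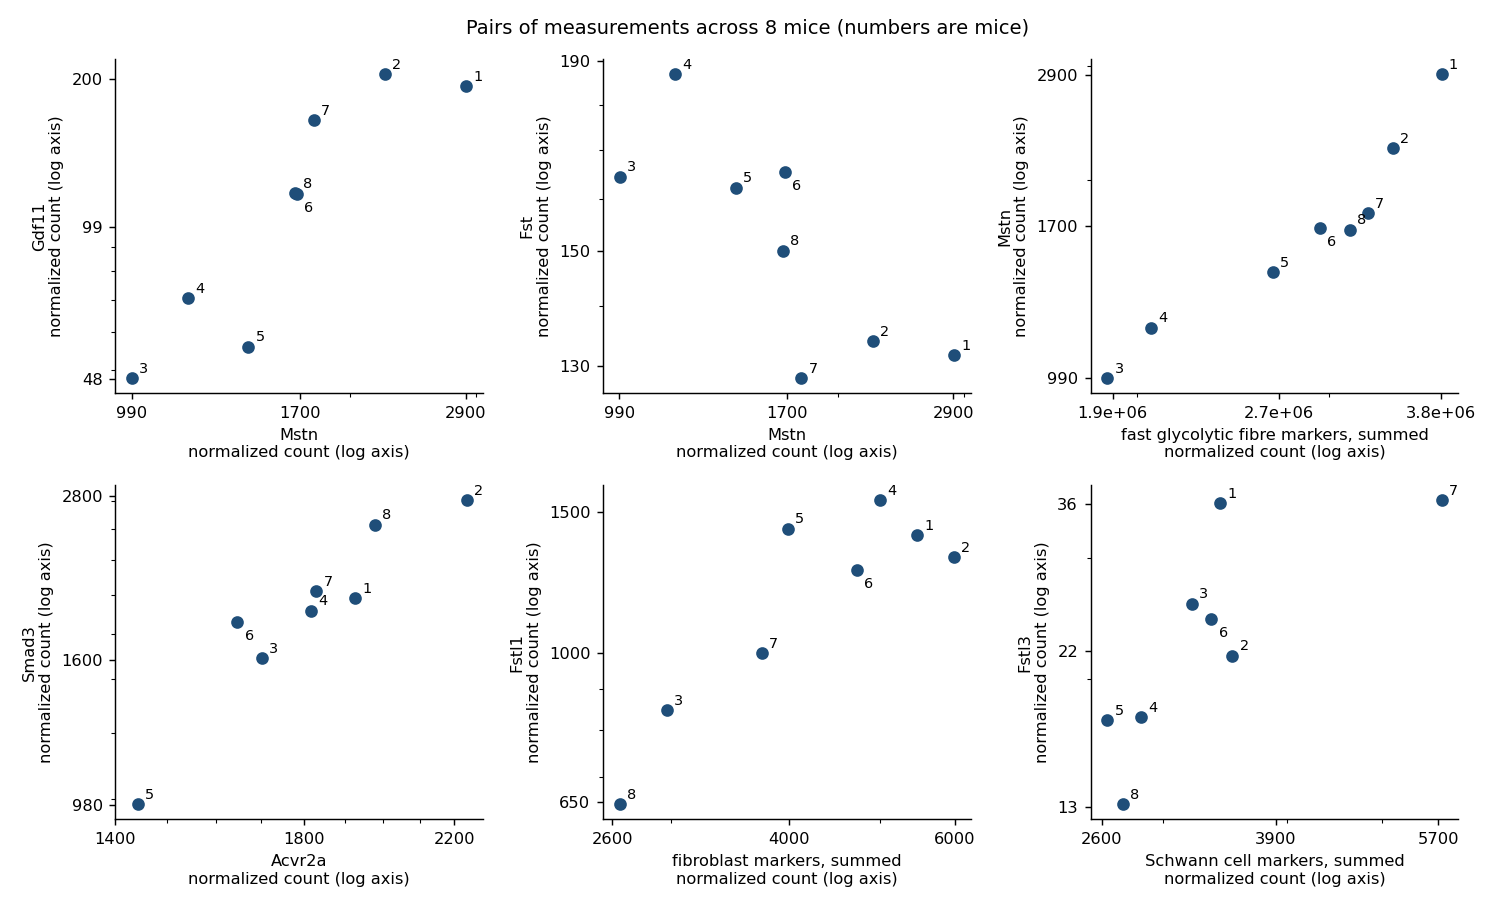
Normalized counts of pairs of genes or summed marker lists, 1 point per mouse, numbered 1 to 8, log scales on both axes. Mstn and Gdf11 rise together from mouse 3 to mice 1 and 2, Fst is lowest in mice 1, 2 and 7, and mouse 5 has the lowest Acvr2a and Smad3.

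Whole muscle holds several cell types and fibre types, and in bulk samples fewer cells of a type and less RNA per cell cannot be told apart. Summed markers of fast glycolytic fibres ran from 1879000 in mouse 3 to 3807000 in mouse 1, with all 8 markers detected in every mouse. Mstn followed this sum, with r = 0.954 (exact p = 9.92e-05, adjusted p = 0.107 over all genes), rho = 0.976 (exact p = 0.000397) and r = 0.947 without mice 3 and 4. Gdf11 did so with r = 0.897 (exact p = 0.00233) and rho = 0.952 (exact p = 0.00114), and Fst ran the other way with r = -0.820 (exact p = 0.0117) and rho = -0.810 (exact p = 0.0218). Acvr1b gave r = 0.804 (exact p = 0.0145) and 0.387 without mice 3 and 4. In the unadjusted test 6.76% of all genes had a positive and 7.09% a negative relation to this sum. The edgeR fit called a positive slope for 0.919% of genes, among them Mstn (edgeR adjusted p = 0.00912) and Gdf11 (adjusted p = 0.0197). Myh4, the fastest myosin heavy chain, made up 44.7% to 54.2% of the sum. The 10 most abundant genes, which included 2 or 3 of these markers, took 18.8% to 26.2% of the reads of a library, and Mstn moved with that share too (r = 0.959, exact p = 0.000223, with mice in the same rank order). With the same share Gdf11 gave r = 0.935 (exact p = 0.00129), Fst r = -0.879 (exact p = 0.00615) and Acvr1b r = 0.735 (exact p = 0.0404). With the size factor of a library Mstn gave r = -0.580 (exact p = 0.141), Gdf11 r = -0.732 (exact p = 0.0355) and Fst r = 0.391 (exact p = 0.358), and without the mice with the farthest size factors Gdf11 gave -0.013. With the total count Mstn gave r = 0.178 (exact p = 0.689), Gdf11 r = -0.083 (exact p = 0.855) and Fst r = -0.338 (exact p = 0.427). The part of fibre makeup or of library composition in these relations was not tested.

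Other cell types gave fewer relations. Slow fibre markers summed to 13620 to 26290, at most 0.830% of the fast sum, and of the members Acvr1b passed unadjusted (r = 0.783, exact p = 0.0236, and 0.554 without mice 1 and 3), where 1.58% of genes had a positive relation. Fibroblast markers summed to 2648 to 5987, and Fstl1 moved with them (r = 0.875, exact p = 0.00434, rho = 0.714, exact p = 0.0576), where 6.45% of genes did. Without mice 8 and 3, r was 0.504, so the relation rests on those mice, the lowest for both. Macrophage markers summed to 1746 to 4373, and Fstl1 gave r = 0.742 (exact p = 0.0388, rho = 0.667, exact p = 0.0831, and r = 0.445 without mice 7 and 8), where 8.44% of genes were positive. Schwann cell markers summed to 2634 to 5744, highest in mouse 7, and Fstl3 gave r = 0.773 (exact p = 0.0132, rho = 0.810), where 2.38% of genes were positive. Without mouse 7 it was 0.785. Endothelial markers (4153 to 5928), satellite cell markers (1351 to 1793) and adipocyte markers (612 to 2187) gave no member relation below an unadjusted exact p of 0.05. Every marker of the 8 lists was detected in every library. Of the 80 relations of members to lists, 8 passed unadjusted, a total with no single share of all genes beside it. After adjustment over all genes 0 passed. The part of these cell types in the members' levels was not tested.

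**Figure D4:**
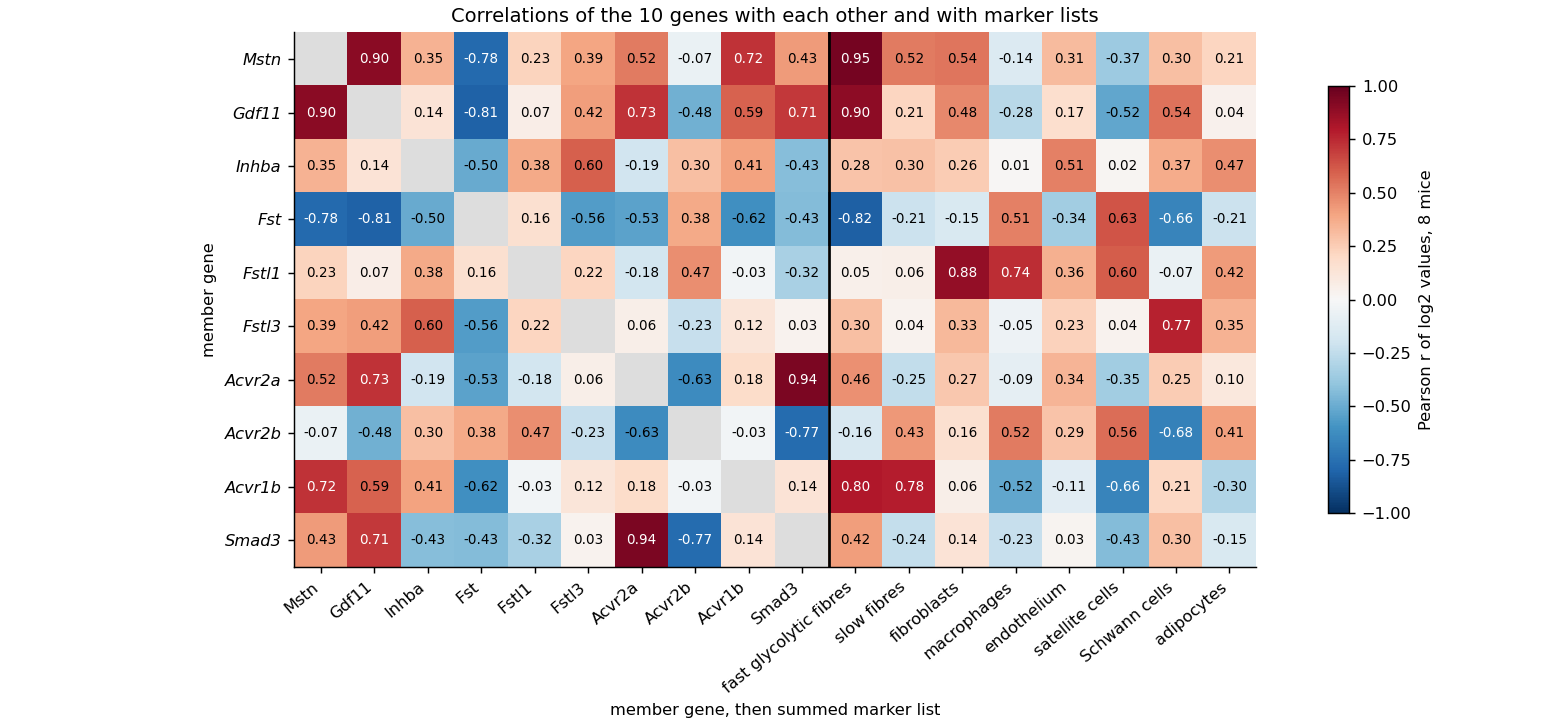
Pearson r over 8 mice of log2 values, for each of the 10 genes (rows) with the other members and, right of the line, with 8 summed marker lists (columns). Red is positive, blue negative, and grey the gene with itself. The strongest values are 0.95 for Mstn with fast fibre markers and 0.94 for Acvr2a with Smad3.

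Another 49 genes of the pathway were taken in 8 lists by role, and 41 reached that minimum of 10 counts. Their median r with Mstn was -0.05, against -0.02 for all genes tested. Of the 41, 3 were positive and 4 negative in the unadjusted exact test, and 0 passed when adjusted over all genes, which lies near the background given above.

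Other ligands were scarce. Inhbb, the subunit of activin B, was the highest of its list at 50.0 ± 15.5 normalized counts (SD, n = 8), with the inhibin subunit Inha at 45.2 ± 9.13. Inhbc and Inhbe, activin subunits made mainly in liver, had 0 reads in all 8 mice and so were not detected at this depth. Among the proteases that free the mature ligands from their propeptides, the proprotein convertase Furin was highest at 1563 ± 157. Pcsk5 varied most of those tested, from 58.0 to 166. Tll2, a tolloid protease able to cut the myostatin propeptide, reached at most 1.10.

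Among other binding proteins, decorin (Dcn) was highest at 9785 ± 2286 normalized counts and also varied most, from 6835 to 13750. Wfikkn2, a dedicated myostatin and GDF11 antagonist, was at 265 ± 27.8. Among other receptors, the BMP type II receptor Bmpr2 was highest at 4152 ± 589. Acvr1c, encoding ALK7, varied most of those tested, with 74.6 in mouse 2 and its lowest value in mouse 8, and the co-receptor Tdgf1 reached at most 2.21. In the Smad list, Zfyve9, the SARA anchor protein, was highest at 3997 ± 572 and also varied most, and Smad4, the common partner, was at 1676 ± 215. Among inhibitors, the corepressor Ski was highest at 1105 ± 171 and Tgif1 varied most, from 406 to 1159.

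The BMP branch, which opposes myostatin in muscle, held the most variable of the 41 pathway genes that reached the 10-count minimum. Gdf5, a ligand that protects denervated muscle, was at 12.7, 19.5, 287, 265, 30.3, 48.9, 25.4 and 95.2 normalized counts in mice 1 to 8. Mice 3 and 4, the lowest for Mstn, were far above the other 6, a 22.6-fold range. Its r with Mstn was -0.884 (exact p = 0.00327, adjusted p = 0.188), with rho = -0.929 (exact p = 0.00223), r = -0.777 without mice 1 and 3, and an edgeR adjusted p of 0.0282. Its coefficient of variation was 115%. The type I receptor Bmpr1a was the highest gene of this list at 2497 ± 347. Fbxo30, a ubiquitin ligase that BMP signalling represses, gave r = -0.871 with Mstn (exact p = 0.00694, adjusted p = 0.221, edgeR adjusted p = 0.0701). It was at 1347 and 1770 in mice 3 and 4 and at 729 in mouse 1.

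Of the muscle genes downstream, the atrophy ubiquitin ligase Fbxo32 was highest at 62920 ± 13200 normalized counts, with Trim63 at 43890 ± 10850. Myod1, the myogenic factor, varied most, from 61.5 to 252. The genes with an unadjusted relation to Mstn, named after their values were seen, were Bmp1 (r = 0.894), Myod1 (0.805) and Ltbp3 (0.755) on the positive side, and Gdf5, Fbxo30, Trim63 (-0.758) and Cdkn1a (-0.757) on the negative side. Fbxo32 was not among them (r = -0.276, exact p = 0.509).

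Across the 15134 genes, those most like Mstn over the 8 mice were Kctd15 (r = 0.978), Dcaf6 (0.966), Myh4 (0.964), the fast-fibre actinin Actn3 (0.963) and the calcium channel subunit Cacna2d1 (0.961). Myh4 and Cacna2d1 ranked the 8 mice in the same order as Mstn. The most opposite were Abhd6 (-0.989), Smpdl3a (-0.982), Fbxo6 (-0.978), Gm6035 (-0.974) and Nat9 (-0.971). These are the ends of a list of all genes and are given as a description.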

How the data were processed

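Poly-A mRNA libraries were prepared from hindlimb muscle of the 8 mice and sequenced. The submitters' processing notes name FastQC, fastp and STAR with GRCm38.p6, and the study's methods name summarizeOverlaps and DESeq2. The annotation release and strand setting are not given in the sources used here. The deposited values are a normalized signal, counts divided by a size factor (0.906 to 1.204) by the authors. Whole reads were recovered from each column, with 100% of nonzero values within 0.01 of a read, and the tests used the 15135 genes that reached 10 counts in each library.

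Gene symbols, exons and coordinates came from GENCODE M21 on GRCm38, which held 55227 of 55487 IDs, and levels per kilobase used the union of exons. Spread was tested by a chi-square index of dispersion, order by sign flips within mice, and relations by exact permutation of log2(value + 1), with Benjamini-Hochberg adjustment over all genes. The median coefficient of variation over genes is after the 10-count minimum. edgeR 4.0.16 in R 4.3.3, with scipy 1.17.1, was used for the covariate fits, and each test was checked on simulated data. Alternatives changed the scaling, filter, pseudocount, length, threshold, correlation and mice included. The mice are taken as separate animals from the labels. The members, pathway lists and marker lists were chosen with earlier results of these data known. Named genes are the 10 members, in each pathway list the gene with the highest mean and, among those reaching 10 counts in each library, the one with the highest coefficient of variation, and genes at or near 0, and the 5 genes at each end of the correlation with Mstn. Wfikkn2, Inha, Smad4, Fbxo30, Trim63, Cdkn1a, Bmp1, Ltbp3, Id2 (from the screen for outlying mice) and Orc4 (for its overlap with Acvr2a) were named outside that rule, after their values were seen. Acta1 and Ckm are from the muscle check list.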

Additional observations from a re-analysis of the deposited data

Results flagged for a closer look

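A total of 59 values (the members, pathway genes and summed marker lists that could be tested) were screened for 1 mouse far from the other 7, a screen that picks about 1 in 20 by chance, or 2.95 of 59. It picked 2, both in mouse 7. The summed Schwann cell markers were at 5744 normalized counts in mouse 7 and between 2634 and 3525 in the other mice. Id2, an inhibitor of differentiation and a BMP target, was at 142 normalized counts in mouse 7 and between 74.3 and 94.7 in the others. No member of the pathway was picked. The relation of Fstl3 to the Schwann cell markers was r = 0.773 with mouse 7 and 0.785 without it.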

How the results depend on the processing

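The count of members with spread beyond counting error was 10, where 81.0% of all genes passed. It was 9 to 10 when each mouse was left out, where 76.6% to 79.9% of genes passed. At a threshold of 0.01 it was 8, beside 73.4% of genes, and with library totals as the only scaling 9, beside 86.9%. These counts do not single the members out. Neighbours that differed in the per-length order numbered 7, 6 to 8 without a mouse and 5 with longest transcripts. Of the 9 relations to Mstn, 3 passed unadjusted, and 1 to 3 without a mouse, the 1 being without mouse 1. The adjusted exact count was 0, but without a mouse the smallest p is 0.000198 and none can pass unless at least 61 genes do, so a 0 there says nothing about stability, while the edgeR covariate fit, chosen after seeing the data, called 1. For the 80 relations to marker lists the counts were 8 unadjusted (7 to 10 without a mouse) and 0 adjusted, and edgeR called 2. For the member relations rerun under other settings, 149 r values kept their direction and side of the unadjusted threshold. Another 23 kept the direction but lost the threshold, and 0 reversed. All relations rerun had passed unadjusted in the main setting on these same mice, so the tally is no independent support. Most losses fell on Acvr1b with Mstn and on Fstl1 with macrophage markers. Gdf11 with Acvr2a, Gdf11 with Smad3 and Acvr2b with Smad3 were not rerun. With library totals only, Acvr1b gave r = 0.290 with Mstn and 0.367 with fast fibre markers. Fst with Mstn lost the threshold without mouse 1 (r = -0.735, exact p = 0.0605). The mean levels of the 10 members moved by less than 1 SD in all 30 values under other scalings or with medians. That was largely fixed in advance and is no measure of stability. A median always lies within 1 SD of the mean, and the other scalings were set to the same geometric mean as the authors' size factors. No paired analysis was possible because the 8 mice form a single group with no other group to pair them with, and the only within-mouse test was that of neighbouring genes. Depth limits Inhba and Fstl3, with 12 to 45 reads a library.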
